A study of Mus musculus with 2 samples.

Results

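Genes of the mitotic spindle, the kinetochore and cytokinesis were examined in bone marrow-derived dendritic cells of the mouse, named GMDC in the labels. The set holds 55 named genes. A member was measured where a probe set carried its symbol and no other in the platform annotation, which found 52 of the 55, each with 1 probe set, among 22180 genes measured in the same way. Ccnb1, Ccnf and Ncapg had no such probe set and are not analysed here, and 5 probe sets that pair a member with another gene were left out. RNA of 1 control culture and of 1 culture given conditioned medium was hybridised to 1 array each. The medium came from topotecan-treated E0771 cells, a mouse mammary tumour line, and topotecan inhibits topoisomerase I. The label of the control says no more than control, so exposure to tumour-cell medium and the treatment of the tumour cells with topotecan cannot be told apart. For strain, age, culture time and the number of mice behind each culture, the sources used here give nothing. With 1 array per condition no difference could be tested, no value has a replicate error, and genes were counted by a fixed size of at least 2-fold.

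Entry into mitosis is driven by Cdk1 with its A- and B-type cyclins. Condensin and topoisomerase II then compact the chromosomes, kinetochores attach them to spindle microtubules, and the spindle checkpoint holds back the anaphase-promoting complex (APC/C) until all are attached. Kinesins and microtubule-bundling proteins move the chromosomes and build the midzone at which the cell divides. Most of these genes are transcribed in G2 and M phase, and dendritic cell cultures from bone marrow are known to hold dividing precursors beside non-dividing differentiated cells. In many late cell-cycle genes a short promoter element, the cell-cycle genes homology region (CHR), is bound by the MuvB complexes, which repress the gene with DREAM and activate it with B-Myb, and CCAAT boxes bound by NF-Y often lie nearby.

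The promoters of the 8 members with the largest downward difference among those that hold a CHR are shown. Many members, though not all, hold a CHR, a CCAAT box or both. A link between these elements and the differences was not tested. RefSeq sequence (GRCm38.p6) from 250 bases before to 50 bases after the annotated start was matched by symbol for 44 of the 55 members. Each line gives 100 bases before and 20 bases after the start, 5′ to 3′ on the gene's strand, with capitals for each CHR (TTTGAA or TTCGAA) and each CCAAT on either strand.
Ccnb2: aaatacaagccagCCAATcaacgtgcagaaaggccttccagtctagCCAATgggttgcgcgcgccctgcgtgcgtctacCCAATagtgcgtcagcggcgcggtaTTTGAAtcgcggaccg
Ube2c: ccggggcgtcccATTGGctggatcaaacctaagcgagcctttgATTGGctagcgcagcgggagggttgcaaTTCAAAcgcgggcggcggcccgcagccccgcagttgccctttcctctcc
Kif20b: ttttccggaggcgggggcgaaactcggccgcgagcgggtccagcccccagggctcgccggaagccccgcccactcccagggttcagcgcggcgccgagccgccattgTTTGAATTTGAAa
Top2a: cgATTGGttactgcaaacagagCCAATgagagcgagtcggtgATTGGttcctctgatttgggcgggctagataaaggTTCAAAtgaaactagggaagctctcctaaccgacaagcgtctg
Kif11: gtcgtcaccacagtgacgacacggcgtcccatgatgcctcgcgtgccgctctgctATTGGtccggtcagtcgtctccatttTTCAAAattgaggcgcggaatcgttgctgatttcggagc
Ttk: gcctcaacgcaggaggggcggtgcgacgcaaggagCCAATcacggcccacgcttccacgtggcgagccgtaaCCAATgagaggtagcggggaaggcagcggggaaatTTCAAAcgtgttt
Cdc20: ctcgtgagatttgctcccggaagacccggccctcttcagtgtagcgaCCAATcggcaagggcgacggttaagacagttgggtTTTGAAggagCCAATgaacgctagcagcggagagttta
Kif22: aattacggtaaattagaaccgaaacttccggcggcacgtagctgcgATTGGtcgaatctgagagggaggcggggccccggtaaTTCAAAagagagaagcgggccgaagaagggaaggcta
On the plus strand these stretches are chr2:164769829-164769948 for Ube2c, chr19:34922258-34922377 for Kif20b, chr19:37376282-37376401 for Kif11 and chr9:83834589-83834708 for Ttk. On the minus strand they are chr9:70421535-70421654 for Ccnb2, chr11:99024170-99024289 for Top2a, chr4:118437324-118437443 for Cdc20 and chr7:127042401-127042520 for Kif22.

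Among the 44 members with a promoter window, 34 (77.3%) held a CHR on either strand, against 21.7% of all 27025 genes in the table and 16.7% of 10723 kept genes that were no members. In 30 of the 44 (68.2%) a CHR began within 50 bases of the start, as in 6.12% of all genes. CCAAT was found in 31 (70.5%), against 41.1% of all genes, and both elements together in 28 (63.6%), against 8.61%. A CHR that began 20 to 40 bases after the first base of a CCAAT box, a spacing chosen after the sequences were seen, was present in 15 members (34.1%) and in 1.10% of all genes. In the lines above that spacing was 25 bases in Ccnb2, 28 in Ube2c, 26 in Kif11, 37 in Kif22 and 35 in Ttk, Cdc20 and Top2a. Kif20b held no CCAAT in its window. For E2F factors, TTCCCGC was searched on both strands. A second E2F sequence searched in this way was TTGGCGC. The remaining one was TTCGCGC. At least 1 of them occurred in 11 of the 44 members, against 9.20% of all genes but 14.7% of kept genes that were no members. An E2F match shared bases with a CCAAT match in 2 members. Neither a CHR nor CCAAT was in the window of 7 members (15.9%), against 46.9% of all genes. All 7 were at least 2-fold lower, among them Birc5 and Nuf2 with large downward differences. This says only that these letters are not in the window. Within the module, the median log2 difference was -1.82 for the 32 measured members with a CHR. It was -1.99 for the 9 with a window but no CHR. The 32 include Kif4 and Kif14, under the filter level on both arrays, and these medians were not tested against each other.

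**Figure D1:**
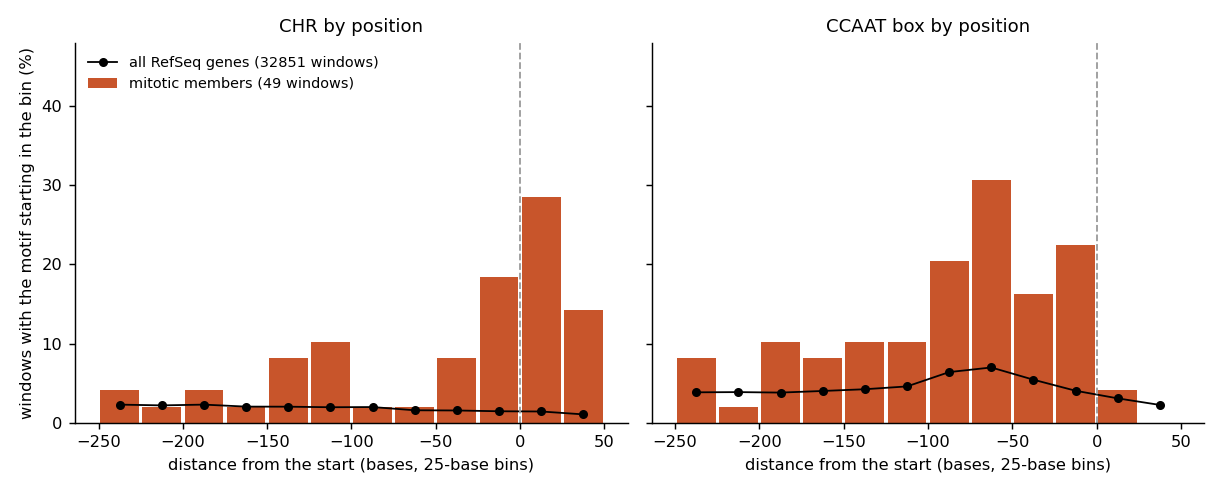
Share of promoter windows (%) in which a CHR (left) or a CCAAT box (right) begins in each 25-base bin, against distance from the annotated start, for 49 windows of 44 members (bars) and all 32851 RefSeq windows (line); some genes have several windows. The members' CHR matches are most frequent in the 25 bases after the start, at 28.6% of windows against 1.43% of all windows, and their CCAAT matches between 75 and 50 bases before it, at 30.6% against 6.99%.

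Mitotic genes were lower with conditioned medium in each of the roles examined, apart from single members. Of the 52 measured members, 45 were at least 2-fold lower, 51 had a difference below 0, and 1, Tpx2, was at least 2-fold higher. Of all 22180 measured genes, 4.94% were at least 2-fold lower, 5.79% at least 2-fold higher, and 11603 had a difference below 0. The median log2 difference, conditioned medium minus control, was -1.96 over the 52 members and -0.04 over all measured genes. Of the measured members, 49 reached the filter level, a log2 intensity of 4.10 on at least 1 array, the median value over both arrays together. The same 45 members are counted lower among these 49, against 6.84% of 13712 kept genes, but 13 of the 49 passed through their control value alone, so the count over kept members gives no support of its own. With values under 4.10 raised to that level, 44 of the 49 were still at least 2-fold lower, against 5.91% of kept genes. The member lost was Anln. At least 4-fold lower were 22 members (1.13% of kept genes) and at least 8-fold lower 4 members, Ccnb2, Shcbp1, Ube2c and Birc5 (0.263% of kept genes). In bulk RNA, fewer dividing cells in the culture and less of these RNAs per dividing cell cannot be told apart.

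**Figure D2:**
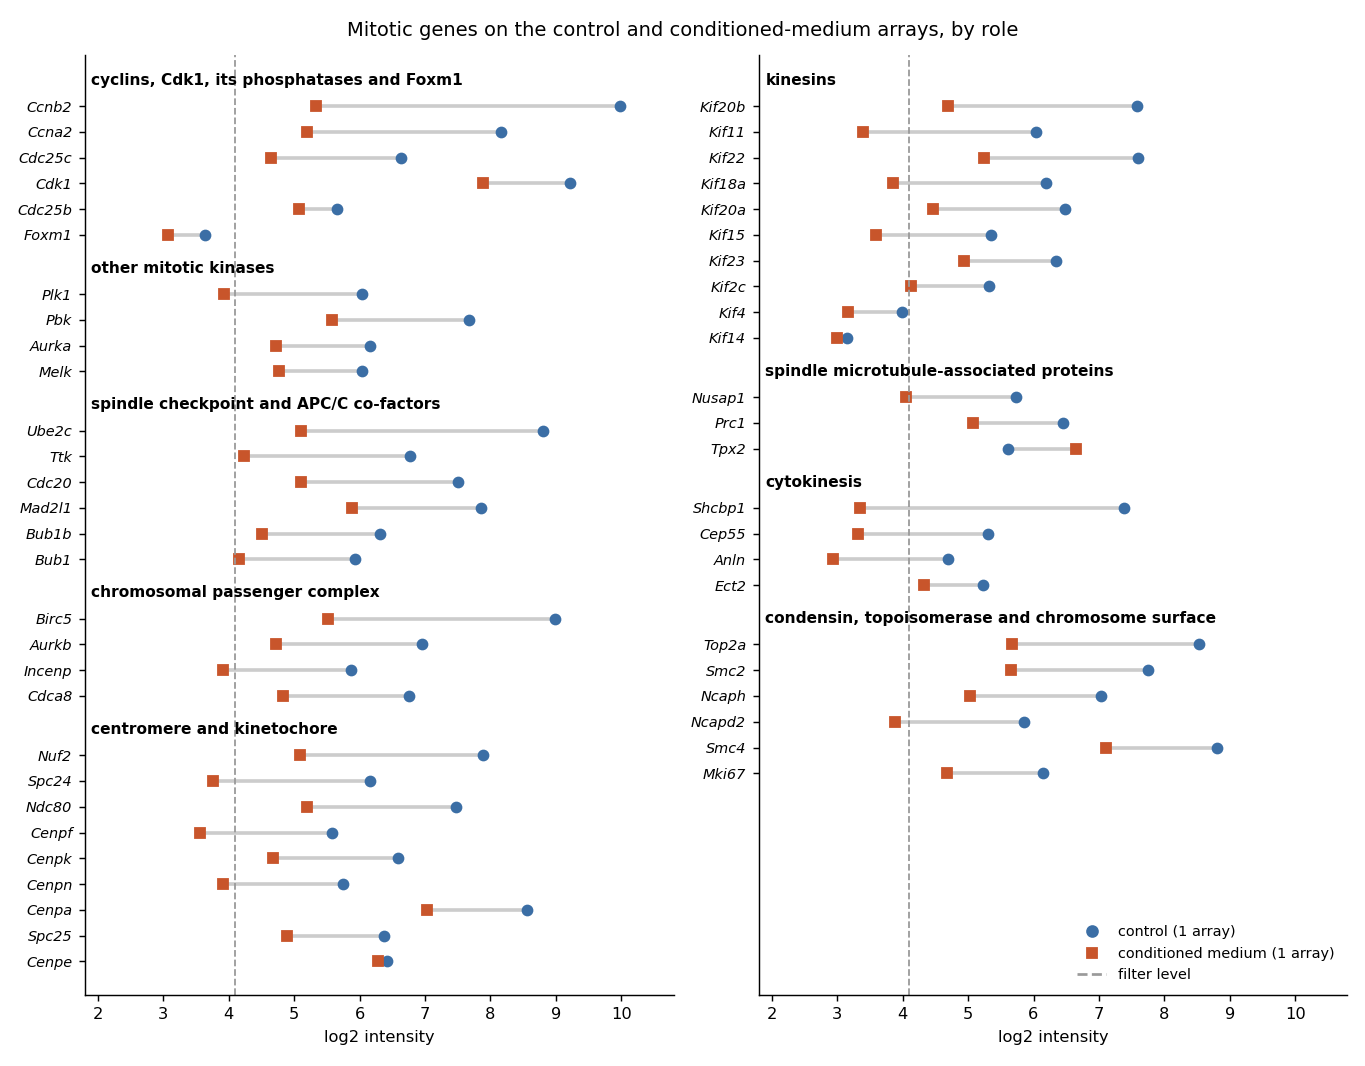
Log2 intensity of the 52 measured members on the control array (circles) and the conditioned-medium array (squares), grouped by role, with the filter level of 4.10 as a dashed line; each point is 1 array, so there are no error bars. The square lies left of the circle in every row except Tpx2, and the gap is widest for Ccnb2, from 9.99 to 5.33.

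Cyclins and the other Cdk1 regulators differed widely in size. Ccnb2, which encodes cyclin B2, a partner of Cdk1 in mitosis, had a log2 intensity of 9.99 in the control and 5.33 with conditioned medium. It was 25.2-fold lower, rank 5 from the lowest among the differences of all kept genes. Ccna2, the gene of cyclin A2, which acts in S phase and on entry into mitosis, read 8.16 and 5.20 (7.79-fold lower). Cdc25c encodes a phosphatase that activates Cdk1, and its values were 6.64 and 4.65 (3.97-fold lower). Cdk1 itself had the smaller difference of 2.51-fold, from 9.22 to 7.89, and stayed far above the filter level on both arrays. Cdc25b, a related phosphatase that acts early in mitotic entry, lay inside the 2-fold limit at 5.66 and 5.08. Foxm1, a transcription factor of G2 and M phase genes, was under the filter level on both arrays (3.64 and 3.07), where a difference cannot be read.

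The other mitotic kinases were each at least 2-fold lower. Plk1, a kinase of mitotic entry, centrosome maturation and cytokinesis, read 6.03 in the control and 3.93 with conditioned medium. The 4.30-fold difference became 3.81-fold against the filter level, because the second value lay under it. Pbk, a mitotic kinase of the MAP kinase kinase group, went from 7.67 to 5.58 (4.27-fold lower). Aurka, the centrosomal Aurora kinase, read 6.16 and 4.72 (2.72-fold lower), and Melk, a kinase expressed in proliferating cells, 6.03 and 4.77 (2.39-fold lower).

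All 6 genes of the spindle checkpoint and the APC/C co-factors were at least 2-fold lower, with a median log2 difference of -2.19. Ube2c encodes the ubiquitin-conjugating enzyme that starts chains on APC/C substrates. It read 8.80 on the control array and 5.10 on the other, 12.9-fold lower. Cdc20, the APC/C activator that the checkpoint inhibits, read 7.50 and 5.10 (5.25-fold lower). Ttk, the kinase Mps1 at the head of the checkpoint, read 6.77 and 4.24 (5.77-fold lower). Mad2l1, the Mad2 protein that binds Cdc20, was 3.96-fold lower (7.86 and 5.88). Bub1 and Bub1b, kinetochore-bound checkpoint proteins, were 3.40-fold and 3.51-fold lower. The activator and its inhibitors thus lay lower on the same array.

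The chromosomal passenger complex corrects faulty attachments and later directs cytokinesis, and its 4 genes were all lower. Birc5, which encodes survivin, read 8.99 in the control and 5.52 with conditioned medium, 11.1-fold lower. Aurkb, the kinase of the complex, read 6.95 and 4.72 (4.68-fold lower). Incenp, its scaffold, was 3.86-fold lower (5.86 and 3.92), a difference of 3.40-fold against the filter level. Cdca8, the borealin gene, was 3.82-fold lower (6.75 and 4.82).

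Of the 9 centromere and kinetochore genes, 8 were at least 2-fold lower. Ndc80, Nuf2, Spc24 and Spc25 encode the 4 subunits of the Ndc80 complex, which holds the microtubule. Nuf2 read 7.89 and 5.09 (6.93-fold lower). Ndc80 read 7.48 and 5.19 (4.88-fold lower). Spc24 was 5.29-fold lower (6.16 and 3.75), or 4.16-fold against the filter level, and Spc25 was 2.79-fold lower (6.37 and 4.89). All 4 subunits were therefore lower, by unequal amounts. Cenpa, the histone H3 variant that marks the centromere, remained well above the filter level at 8.56 and 7.03 (2.87-fold lower). Cenpk and Cenpn, inner kinetochore proteins of the constitutive centromere-associated network, were 3.79-fold and 3.55-fold lower, Cenpn 3.13-fold against the filter level. Cenpf, a large outer kinetochore protein, read 5.58 and 3.56, which is 4.06-fold as deposited and 2.79-fold against the filter level. Cenpe, the kinesin that carries chromosomes to the spindle equator, was the exception, with nearly equal values of 6.42 and 6.27.

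Of the 10 measured kinesins, 8 were at least 2-fold lower, against 4.94% of all measured genes. These 8 reached the filter level, 3 of them through the control array alone. Kif20b, a kinesin of late cytokinesis, read 7.58 in the control and 4.68 with conditioned medium (7.46-fold lower). Kif11 encodes Eg5, which pushes the spindle poles apart, and read 6.04 and 3.39. Its 6.31-fold difference became 3.84-fold against the filter level. Kif22, a chromosome-arm kinesin, read 7.60 and 5.24 (5.14-fold lower). Kif18a, which dampens chromosome movements at the microtubule ends, was 5.07-fold lower (6.19 and 3.84), or 4.25-fold against the filter level. Kif20a and Kif23, both motors of the central spindle, were 4.04-fold (6.48 and 4.46) and 2.65-fold (6.35 and 4.94) lower. Kif15, a motor that can support bipolar spindles, was 3.39-fold lower, or 2.39-fold with its low value raised to the filter level, and Kif2c, a microtubule depolymerase at centromeres, was 2.29-fold lower (5.32 and 4.12). Kif4 (3.99 and 3.17) and Kif14 (3.15 in the control, log2 difference -0.15) were under the filter level on both arrays.

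Spindle-associated proteins held the 1 member that went the other way. Tpx2, which activates Aurora A and nucleates microtubules near chromosomes, read 5.61 in the control and 6.65 with conditioned medium (2.06-fold higher). Its partner Aurka was lower. Prc1, which bundles midzone microtubules, read 6.46 and 5.08 (2.60-fold lower), and Nusap1, which binds microtubules to chromatin, 5.73 and 4.05 (3.19-fold lower). No member had a second probe set, so neither the Tpx2 value nor any other member's difference could be checked within these arrays. Where other genes had several detected probe sets, the pooled within-gene SD of their log2 differences was 0.46, which measures disagreement between probe sets on these arrays and not the spread between cultures.

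Cytokinesis genes were lower, with several readings near background. Shcbp1, a midbody protein that binds the centralspindlin complex, read 7.39 in the control and 3.34 with conditioned medium. This was 16.6-fold lower as deposited and 9.79-fold against the filter level. Cep55, which recruits the abscission machinery to the midbody, was 3.97-fold lower (5.30 and 3.31), or 2.30-fold against the filter level. Anln, the actin-binding anillin of the contractile ring, was 3.37-fold lower (4.69 and 2.94), but inside the 2-fold limit against the filter level. Ect2, the exchange factor that activates RhoA at the division plane, lay just inside the 2-fold limit at 5.23 and 4.33 (1.87-fold lower).

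Chromosome compaction genes were all lower. Top2a, the topoisomerase that untangles sister DNA in dividing cells, read 8.53 and 5.67 (7.28-fold lower). Smc2 and Smc4, the core ATPases shared by both condensins, were 4.30-fold (7.75 and 5.65) and 3.21-fold (8.80 and 7.11) lower. Ncaph and Ncapd2, subunits of condensin I, read 7.03 and 5.03 and 5.86 and 3.89, in this order, and the 3.91-fold difference of Ncapd2 became 3.38-fold against the filter level. Mki67, which coats mitotic chromosomes and encodes the proliferation marker Ki-67, read 6.15 and 4.68 (2.77-fold lower).

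**Figure D3:**
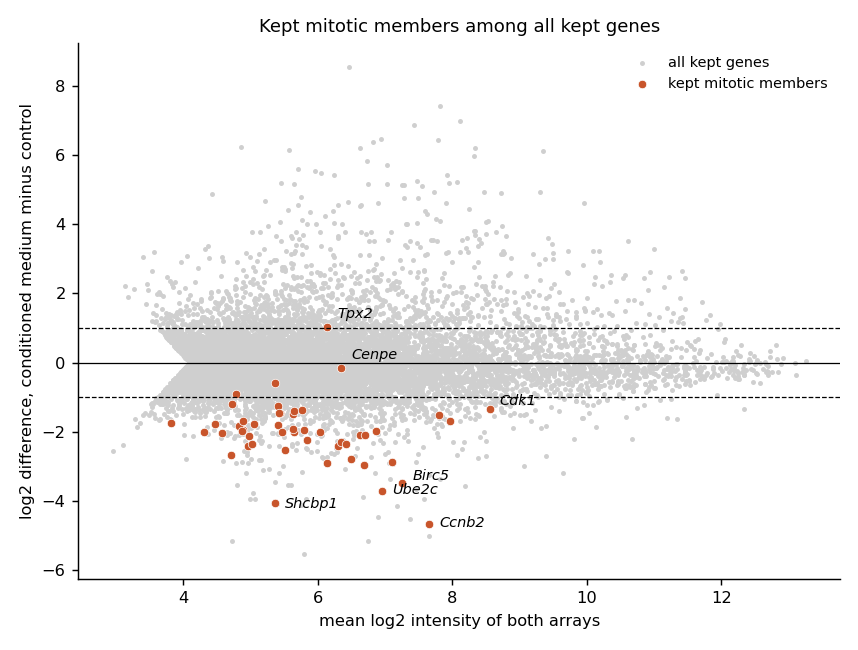
Log2 difference (conditioned medium minus control) against the mean log2 intensity of both arrays for 13712 kept genes (grey) and the 49 kept members (coloured), with dashed lines at 2-fold; each point is 1 gene. The members' mean levels reach 8.55, where those of kept genes reach 13.25, and the members lie below the lower line except Tpx2, Cenpe, Cdc25b and Ect2.

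Further mitotic genes outside the module were also counted. Of 69 kept genes in 3 such lists, 29 were at least 2-fold lower and 2 higher, against 6.84% and 8.63% of all kept genes. In these lists 15 genes had passed the filter through the control array alone. With low values raised to the filter level the lower count was 24, against 5.91% of all kept genes. Of 28 kept further centromere and kinetochore genes, 14 were at least 2-fold lower and 0 higher, with a median log2 difference of -1.01. The range ran from Cenpq, an inner kinetochore gene (7.20 and 4.61, 6.02-fold lower), to Cenpl (5.37 and 5.49). Of 29 kept further spindle and cytokinesis genes, 12 were lower and 1 higher (median -0.76), and with low values raised 8 were lower. Cdca3, a mitotic entry factor, was 8.86-fold lower (7.34 and 4.19), whereas Psrc1, a spindle microtubule regulator, was 3.78-fold higher (5.10 and 7.02). Among 12 kept further entry regulators, 3 were lower and 1 higher (median -0.32), from Plk4, the kinase of centriole duplication (4.48-fold lower, or 2.92-fold against the filter level), to Gtse1, a G2 and S phase microtubule protein (2.38-fold higher).

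Cohesin, APC/C and centrosome genes, many of which also work outside mitosis, were counted separately, beside 6.84% lower and 8.63% higher among all kept genes. With low values raised to the filter level, 5.91% of all kept genes were lower. Of 20 kept genes of cohesin, separase and condensin II, 4 were at least 2-fold lower and 1 higher (median -0.70), and with low values raised 2 were lower. The lowest was Esco2, a cohesin acetyltransferase (2.45-fold lower, or 1.69-fold with the filter level as its floor), and the highest Pttg1, the securin gene that restrains separase, at 8.84 and 10.24 (2.63-fold higher). APC/C subunits and their regulators had 6 of 17 lower and 1 higher (median -0.60). Fbxo5, the APC/C inhibitor Emi1, was 3.54-fold lower, and Ube2s, which extends ubiquitin chains after Ube2c has begun them, was 2.08-fold higher (8.77 and 9.83). Ube2c and Ube2s, enzymes of 1 pathway, thus read in opposite directions. Centrosome genes had 3 of 21 lower and 1 higher (median -0.28), from Haus7 (2.54-fold lower) to Sass6, a centriole assembly gene (4.61-fold higher).

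Genes upstream of mitosis were mixed, where 6.84% of all kept genes were at least 2-fold lower and 8.63% higher. Of 36 kept DNA replication genes, 14 were at least 2-fold lower and 1 higher (median -0.86), from Cdc45, a subunit of the replicative helicase (4.32-fold lower), to Rfc3, a clamp loader subunit (2.50-fold higher). The helicase subunit Mcm2 (5.91 and 5.08) and the sliding clamp Pcna (10.51 and 9.56) lay inside the 2-fold limit. The list of DREAM, MuvB, B-Myb and E2F genes holds genes of the MuvB complexes that bind the CHR, beside E2F and NF-Y genes. It had 2 of 21 lower (9.52%, near the share of all kept genes) and 1 higher (median -0.24). With low values raised, 1 was lower, against 5.91% of all kept genes. Rb1 was 6.39-fold lower by the probe set used (9.41 and 6.73), but its other probe set gave 5.76 and 5.65. Rbl1, the p107 pocket protein of DREAM, was 2.33-fold higher (5.90 and 7.12), and E2f1 read 5.14 and 4.31. Mybl2, which encodes B-Myb, read 4.74 and 4.94 on 1 probe set and 4.75 and 3.97 on the other, so its direction is not settled.

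In the list of G1 cyclins and CDKs, which also holds Cdc7 and Myc, 0 of 9 kept genes were at least 2-fold lower and 5 were higher, against 8.63% of kept genes higher. The 5 were Ccnd1, Ccnd2, Ccnd3, Ccne1 and Myc, and the 3 CDK genes lay inside the 2-fold limit, with log2 differences of -0.75 for Cdk4, -0.43 for Cdk2 and 0.47 for Cdk6. Ccnd1, the gene of cyclin D1, was 4.93-fold higher (5.40 and 7.70), Ccne1, of cyclin E1, 2.40-fold higher (5.77 and 7.03), and Cdc7, a kinase of replication origins, was lowest at 4.78 and 3.96. Of 8 CDK inhibitor genes, 1 was lower and 1 higher. Cdkn3, a phosphatase of Cdk proteins that is itself transcribed late in the cycle, was 14.8-fold lower (8.62 and 4.73). Cdkn1a, which encodes the CDK inhibitor p21, was 4.68-fold higher (9.11 and 11.33). Cdkn1a also stands in the list of p53 target genes, of which 12 of 18 kept were higher and 1 lower. Of the 18, 5 had passed the filter through the conditioned-medium array alone. With low values raised 10 were higher, as were 1073 of all 13712 kept genes. The list ran from Sesn1 (9.03-fold lower, or 5.32-fold with low values raised to the filter level) to Perp (7.76-fold higher, or 6.74-fold).

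**Figure D4:**
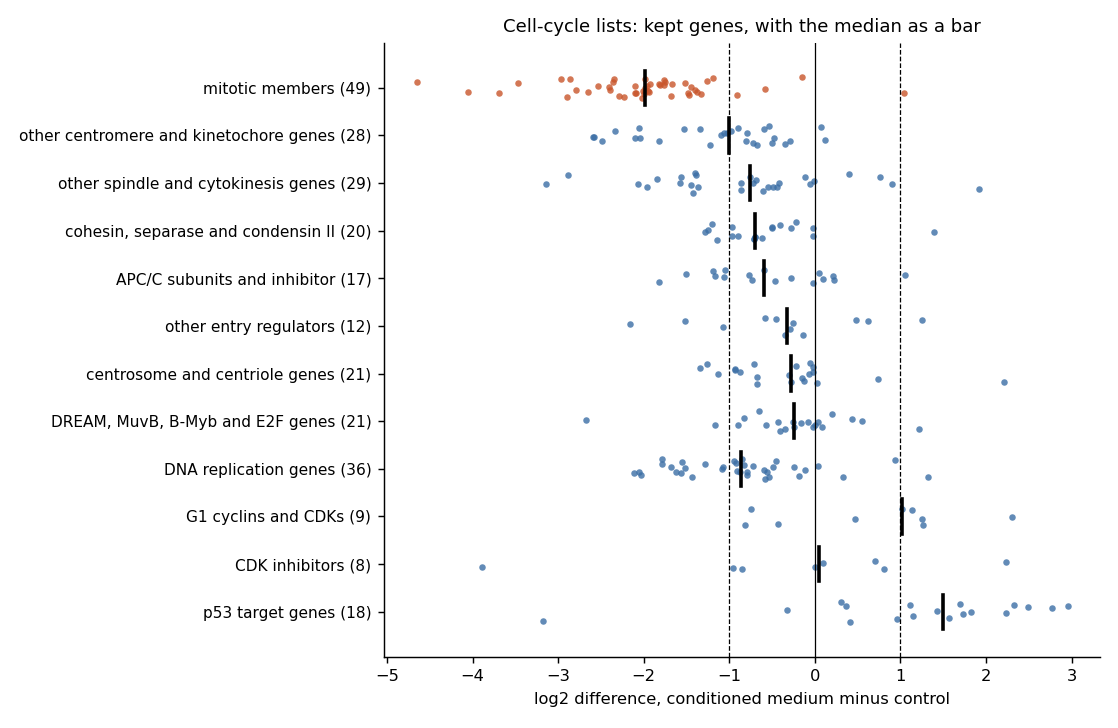
Log2 difference (conditioned medium minus control) of kept genes in the mitotic module and in 11 cell-cycle lists; each point is 1 gene, the bar is the list's median, the number kept is in brackets, and dashed lines mark 2-fold. The median is -1.99 for the 49 kept members, between -1.01 and -0.24 for the mitotic, replication and DREAM lists, and 1.02 for the G1 list, which also holds Cdc7 and Myc.

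Marker genes describe the cells behind these values. Among all kept genes 6.84% were at least 2-fold lower and 8.63% higher, the shares beside which the counts below are to be read. With low values raised to the filter level, 811 of the 13712 kept genes were lower and 1073 higher. Of 14 measured dendritic cell markers, 11 were above the filter level on both arrays, among them the class II genes H2-Aa, H2-Ab1 and H2-Eb1 and the integrin gene Itgax (8.18 and 7.15), while Zbtb46 was under it on both. Of the 13 kept, 4 were at least 2-fold lower, with Batf3 (4.08-fold) and Clec10a (4.03-fold) the lowest. With low values raised to the filter level 3 were lower, without Flt3 (4.38 and 3.15), which is also the lower gene of the early progenitor list below. Higher were 5, with Dpp4 (4.75-fold) and H2-Aa (3.68-fold) the highest. All 12 measured macrophage markers were above the filter level on both arrays. Of these, 2 were at least 2-fold lower, Csf1r (8.58 and 5.66, 7.61-fold) and Adgre1 (9.16 and 6.87, 4.89-fold), and 0 were higher. Of 20 markers of the granulocyte lineage, from precursors to later stages, 13 were at least 2-fold lower and 0 higher. Gfi1, Mmp8, Mmp9 and Cxcr2 lay inside the 2-fold limit below 0, and Cebpe, Ly6g and Lcn2 inside it above 0. The mean log2 intensity of the 20 was 7.87 on the control array and 5.74 on the other. On the control array all 20 reached the filter level, and on the other array 5 did not, among them Elane, Mpo and Camp. The part of these markers, and of Csf1r and Adgre1, in the lower mitotic values was not tested. Early progenitor markers had 1 of 7 kept genes lower and 2 higher as deposited, but 0 lower and 1 higher with low values raised to the filter level, with Kit under the filter level on both arrays. Mast cell and basophil markers had 3 of 7 lower (2 with low values raised) and 1 higher, eosinophil markers 1 of 3 lower, T, B and NK cell markers 1 of 7 lower and erythroid markers 0 of 2. Mammary epithelial markers had 0 of 6 kept genes lower and 3 higher, with Epcam under the filter level on both arrays. Cdh1 was the highest of these at 6.42 and 10.21, but its other probe set read 4.36 and 4.91.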

How the data were processed

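RNA of 2 cultures was measured on 1 array each. The authors deposited 1 value per probe set and array, taken as log2 intensity from its range of -0.26 to 13.50; the log base is inferred, and folds rest on it. Per the labels' protocols, Trizol RNA was labelled as biotinylated cRNA for Affymetrix arrays, and the tool in the submitters' processing notes is Affymetrix Expression Console. Of its version, summarisation, normalization and genome build, the sources used here say nothing. Sorted values of both arrays differed by at most 0.28, so these values could not show a common shift of most genes.

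Of 41345 probe sets, 23521 had 1 gene symbol, 1814 several (not named) and 16010 none. A gene was read from its probe set with the highest mean, and kept where its higher value reached 4.10, the median of all values. The number of arrays limits the precision and allowed no test. All members were named, and from each other list of cell-cycle genes the highest and the lowest kept gene, plus Cdkn1a, Mybl2, Rbl1, E2f1, Mcm2, Pcna and Ccne1. Members and lists were chosen with earlier results of these data known. Promoter windows and coordinates are RefSeq's (GRCm38.p6). Counting by size and the motif search were tested on simulated data. Tools were pandas 2.3.3, numpy 2.4.6, statsmodels 0.14.6 and matplotlib 3.10.9 under Python 3.11.15.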

Additional observations from a re-analysis of the deposited data

How the results depend on the processing

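The count of 45 members at least 2-fold lower kept within 1.5 times of itself under every alternative run: quantile normalization, a loess curve (fraction 0.3) or the centre of the kept genes subtracted, the mean of all probe sets, no filter, a stricter filter (75th percentile) or one on the mean of both arrays, low values raised to the filter level, and sizes of 1.5-fold and 3-fold. It ranged from 36 at 3-fold to 46 at 1.5-fold, while the share of all kept genes that were lower ranged from 2.11% to 17.9%. The mean of all probe sets could not move this count, because each measured member had 1 probe set. Quantile normalization and centring could move it little: the median over all kept genes, -0.07 as deposited, became -0.08 and -0.07. The median log2 difference over kept members ranged from -2.0 to -1.91. The count of members at least 2-fold higher was 1, Tpx2, except at 3-fold, where it was 0. No paired analysis was possible because each condition has 1 array. No alternative replaces a second culture per condition.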

Other observations

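Kept genes outside the cell-cycle lists were also split by whether the promoter window held a CHR. Of 1733 kept genes in no mitotic or other cell-cycle list whose promoter window held a CHR, 137 (7.91%) were at least 2-fold lower with conditioned medium and 9.35% at least 2-fold higher, against 5.92% and 8.25% of 8813 such genes without one. Where a CHR began 20 to 40 bases after a CCAAT box, 14 of 85 genes (16.5%) were at least 2-fold lower and 7.06% higher, with a median log2 difference of -0.35, against 6.17% lower and a median of -0.06 among the 10461 others. Of the measured members with a window, 12 of 15 with the spacing (80.0%) were at least 2-fold lower, with a median of -1.97. Of those without it, 24 of 26 (92.3%) were, with a median of -1.82. Unlike the other genes, these members were not filtered, and they include Kif4 and Kif14, under the filter level on both arrays. These shares compare 1 array with 1 array, the spacing was chosen after sequences were seen, and no test was made.

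A CHR within 50 bases of the start was also counted for each of the other cell-cycle lists, against 6.12% of all genes. It was present in 14 of 25 further spindle and cytokinesis genes (56.0%), in 6 of 15 genes of cohesin, separase and condensin II, in 8 of 30 further kinetochore genes (26.7%) and in 4 of 18 genes of the DREAM and E2F list (22.2%). Lower counts were 2 of 11 further entry regulators, 1 of 6 in the G1 list, 2 of 31 DNA replication genes, 1 of 16 each for the APC/C and centrosome lists, and 0 of 7 CDK inhibitors and 0 of 15 p53 target genes. Counts at least 2-fold lower are over kept genes, not genes with a window, beside 6.84% of all kept genes. They were 14 of 28 further kinetochore, 12 of 29 further spindle, 14 of 36 replication and 4 of 20 cohesin genes. In the APC/C list 6 of 17 were lower, and 3 of 12 further entry regulators, 3 of 21 centrosome and 2 of 21 DREAM and E2F genes. Also lower were 1 of 8 CDK inhibitors, 1 of 18 p53 target genes and 0 of 9 in the G1 list. With low values raised to the filter level, 13 kinetochore, 8 spindle, 2 cohesin and 1 DREAM and E2F genes were lower. The other lists kept their counts. A link across lists between a CHR and lower values was not tested.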
